A study of Bombyx mori with 2 samples.

Results

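Sites at which nearly all reads, but not quite all, carried the same base were examined in the epidermis of the silkworm Bombyx mori. They were selected on the measured share of reads with the alternative base, meaning the base that differs from the SilkDB reference genome. A site was taken when at least 10 reads covered it and its alternative share was below 20% (the low side) or above 80% and below 100% (the high side). This gave 693 sites of the 18174 that 10 or more reads covered, which were themselves part of 47001 sites listed. The low side held 323 sites (1.78% of the covered sites) and the high side 370 (2.04%). The remaining covered sites comprised 3824 with shares from 20% to 80% and 13657 at 100%.

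The RNA came from q-lp, a mutant with quail-like markings and light purple larval skin derived from 932VR whose traits bred true over more than 10 inbred generations, and from 932VR, the plain strain with the wild-type genotype. One library was sequenced per strain, each made from epidermis pooled from 3 silkworms in the 4th instar, 6 hours after molting. The sites were deposited in lists named for both strains together, with no column per library. That the counts hold the reads of both libraries was inferred from those names and is not stated in the labels. What q-lp and 932VR each contributed to a share therefore cannot be told apart, no comparison of the strains was possible at these sites, and there were no replicates. The variant lists analysed here hold no expression levels, and the epidermis label was not checked against marker genes.

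In RNA-Seq of pooled animals, the share of reads with a base reflects how many of the animals carry it, whether they carry it on all their copies of the gene, how strongly each copy and each animal's gene is transcribed, and, for a base seen in very few reads, errors of copying, sequencing and alignment. Nearby bases are often inherited together and are read on the same fragments, so that neighbouring sites of a gene tend to have like shares. Transitions, which exchange bases of the same chemical class (A with G, or C with T), are in most animal genomes more frequent than transversions, which exchange bases between the classes.

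Insertions and deletions made up 13 of the 693 sites, 6 on the low side and 7 on the high side. The 8 with the highest coverage are printed here because their sequence shows what kind of change was listed. At a coverage of 18 reads, BGIBMGA001129 was tied with a low-side deletion of 2 bases in BGIBMGA007248, which is not printed. Each printed sequence is the longer of the 2 alleles as deposited, with the inserted or deleted bases in capitals. Names give the gene and the position of the first base on its scaffold. The strand and the build of the assembly are not given in the sources used here.
BGIBMGA006589, Bm_scaf10 at 5053797, insertion of 1, 2 or 3 bases, longest form: taaaaaaaaaaAAA
BGIBMGA001548, Bm_scaf7 at 4886198, deletion of 1 base: tG
BGIBMGA014226, Bm_scaf80 at 1444804, deletion of 1 or 2 bases, longer form: caaaaaaaaAA
BGIBMGA005013, Bm_scaf32 at 4130590, deletion of 4 bases: aCAGT
BGIBMGA001167, Bm_scaf1 at 7369176, insertion of 1 base: taA
BGIBMGA001335, Bm_scaf288 at 33156, deletion of 2 bases: ctAT
BGIBMGA001478, Bm_scaf7 at 275896, deletion of 2 bases: ttCT
BGIBMGA001129, Bm_scaf1 at 4618087, insertion of 1 base: taaaaaaaaaA

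The high-side indels in BGIBMGA006589, BGIBMGA014226 and BGIBMGA001129 changed the length of a run of A. In BGIBMGA006589, 78 of 81 reads carried a longer run, a share of 96.3% (exact 95% interval 89.6 to 99.2%), and in BGIBMGA014226 a shorter run was carried by 41 of 42 reads, or 97.6% (87.4 to 99.9%). These shares pool the alternative alleles, which the deposited values did not separate. In BGIBMGA001129, 17 of 18 reads carried the longer run. The 6 low-side indels were without exception deletions seen in 2 reads, and 5 of them removed 2 bases. The lowest share of any listed site was among them, 2 of 22 reads or 9.09% in BGIBMGA001335 (exact 95% interval 1.12 to 29.2%), followed by 2 of 21 reads or 9.52% in BGIBMGA001478. Indels were 1.86% of the low side (95% Wilson interval 0.854 to 3.99%), 1.89% of the high side (0.919 to 3.85%), 1.23% of the sites at 20% to 80% (0.926 to 1.63%) and 2.09% of the sites at 100% (1.87 to 2.35%). The intervals of both skewed sides overlapped those of the other classes. Intervals here and elsewhere cover counting error only, since reads are not independent molecules and sites of a gene share reads, and for the same reason no test across sites was made.

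The low and the high side were not mirror images. Low-side shares lay between 9.09% and 19.6% with a median of 15.4%, and 2 of the 323 sites were below 10%. High-side shares lay between 80.5% and 98.9% with a median of 90.9%, and were spread over the whole range. Of the 370 high-side sites, 84 had shares below 85%, 64 from 85% to below 90%, 124 from 90% to below 95% and 98 at 95% or more. The shares that chose the sites ran on without a gap across both limits. The sites nearest below 20% had 11 of 56 reads (BGIBMGA010176), 10 of 51 (BGIBMGA010193) and 9 of 46 (BGIBMGA012465), or 19.6% in each case. Exactly 20% was found at 63 sites, such as 16 of 80 reads in BGIBMGA003685, and the next share above was 20.3% (13 of 64 reads, BGIBMGA013133). The sites nearest above 80% had 33 of 41 reads in BGIBMGA004901 and in BGIBMGA006843 (80.5%) and 29 of 36 in BGIBMGA002526 (80.6%). Exactly 80% was found at 40 sites, and the next share below was 79.7% (63 of 79 reads, BGIBMGA010015, in which the exact interval ran from 69.2 to 88.0%).

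**Figure D1:**
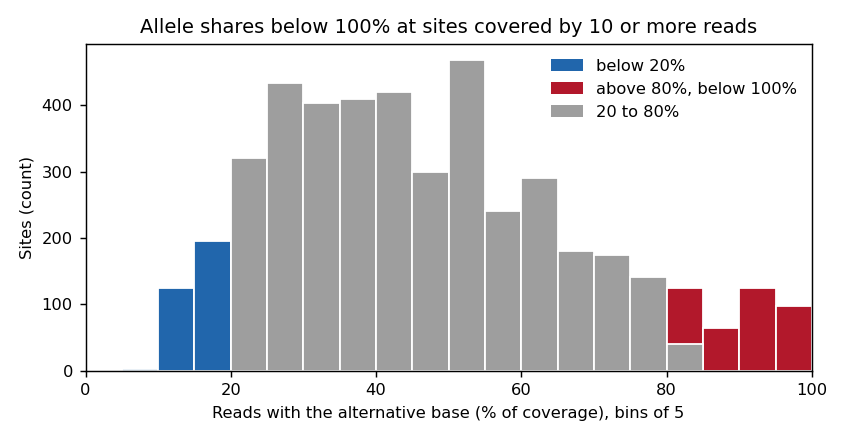
Number of sites covered by 10 or more reads (vertical axis) against the percent of reads with the alternative base (horizontal axis, bins of 5), without the 13657 sites at 100%. Blue bars are the low side, red bars the high side and grey bars the sites at 20% to 80%, including the 40 sites at exactly 80% below the red part of their bar. The low side ends at 2 sites below 10%, while the high side reaches the top bin with 98 sites.

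The list was bounded differently at its ends. No site had fewer than 2 reads with the alternative base, whereas 1 read with the reference base was enough for a site to be listed below 100%. At a coverage of 50 reads or more, where 2 reads of 50 would be 4%, none of the 2556 sites had 2 alternative reads, none was below 10%, and the lowest share was 10.7%. No listed site of any kind had more than 100 reads. Alternative bases as rare as that were thus absent from the listed sites of 50 to 100 reads, while reference bases seen in 1 of 94 reads were present. With at least 2 alternative reads at every site, no site covered by fewer than 10 reads was below 20%, and 184 such sites were above 80% and below 100%.

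The rarer base rested on very few reads at about every other skewed site. On the low side, 164 of 323 sites had 2 alternative reads (50.8%, 45.3 to 56.2%), at coverages from 11 to 22. A further 21 had 3 such reads, 60 had 4 or 5, 64 had 6 to 10 and 14 had 11 or more, with 18 as the highest. On the high side, 180 of 370 sites had 1 reference read (48.6%, 43.6 to 53.7%), at coverages from 10 to 94. Another 73 had 2 reference reads, 39 had 3, 39 had 4 or 5, 35 had 6 to 10 and 4 had 11 or more. The low side was therefore made of shallow sites with 2 reads and deeper sites with more, while sites with 1 reference read ran through the whole range of coverage.

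Coverage as such differed little between the classes. Its median was 18 reads on the low side (11 to 98), 22 on the high side (10 to 96), 21 at 20% to 80% (10 to 98) and 20 at 100% (10 to 100). By coverage, low-side sites made up 1.83% of sites covered by 10 to 14 reads, 2.45% at 15 to 19, 1.42% at 20 to 29, 1.63% at 30 to 49 and 1.53% at 50 to 100. The share at 15 to 19 reads (1.97 to 3.03%) rested mostly on sites with 2 alternative reads, which were 65 of the 80. High-side sites made up 2.13%, 1.59%, 1.74%, 1.91% and 3.01% in the same ranges of coverage. Their share was highest at 50 to 100 reads (2.42 to 3.75%) and lowest at 15 to 19 reads (1.21 to 2.08%). These intervals did not overlap. At 50 to 100 reads, 34 of the 77 high-side sites had 1 reference read, beside 1912 sites at 100%. Coverage sets which shares above 80% and below 100% a site can have, so these values are a description and were not tested.

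**Figure D2:**
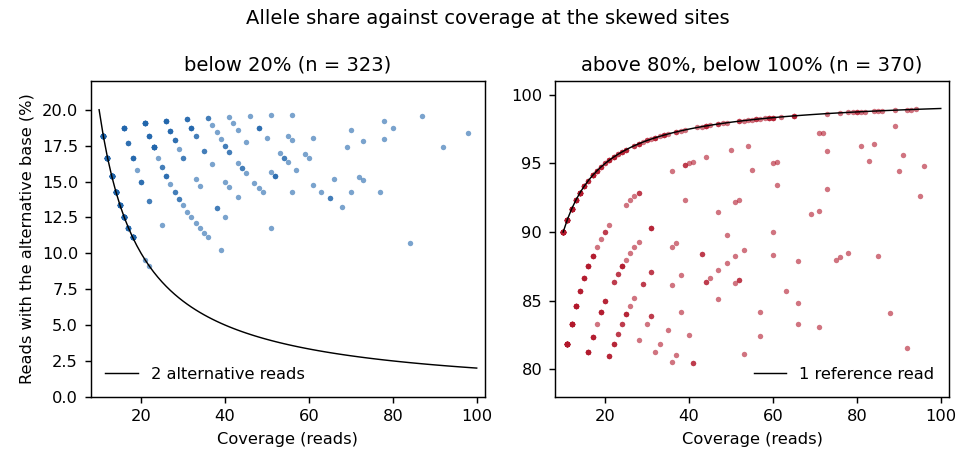
Percent of reads with the alternative base (vertical axis) against coverage in reads (horizontal axis) for the 323 sites below 20% (left) and the 370 sites above 80% and below 100% (right); each point is a site, and darker points are sites that coincide. The black lines mark 2 alternative reads (left) and 1 reference read (right). Low-side points leave the line at 22 reads and stay above 10% beyond it, while high-side points follow the line of 1 reference read up to 94 reads.

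At these depths few low-side shares could be placed firmly below the limit. The exact 95% interval lay wholly below 20% at 1 low-side site, that in BGIBMGA012651, where 9 of 84 reads had the alternative base (10.7%, 5.02 to 19.4%). It lay wholly below 50% at 299 of the 323 low-side sites (92.6%). On the high side, the interval lay wholly above 80% at 93 of 370 sites (25.1%) and wholly above 50% at 351 (94.9%). That so few intervals reached 50% follows in large part from the choice of the sites on the same reads. The exact share was loosely known at most of them.

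The best covered low-side site was in BGIBMGA006115, with 18 of 98 reads (18.4%, 11.3 to 27.5%), followed by BGIBMGA002963 with 16 of 92, BGIBMGA003727 with 17 of 87, BGIBMGA012651 with 9 of 84 and BGIBMGA002513 with 15 of 80. None of these genes has a name or a function in the sources used here. The best covered high-side sites were in BGIBMGA006730, with 91 of 96 reads (94.8%, 88.3 to 98.3%), BGIBMGA014607, with 88 of 95, BGIBMGA013852, with 93 of 94, BGIBMGA006225, with 92 of 93, and BGIBMGA003893, with 91 of 92. The 3 genes named last had a lone reference read, and the site in BGIBMGA013852 had the highest share below 100% of all covered sites (98.9%, 94.2 to 99.97%). After the pair of deletions described above, the lowest low-side share was 10.3% (4 of 39 reads) in the cuticle protein gene BGIBMGA008255.

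Transitions prevailed on both sides, as elsewhere, and their share was lowest on the high side. Whether the interval of the high side overlapped that at 20% to 80% depended on how sites were counted. Transitions were 210 of 317 single-base sites on the low side (66.2%, 60.9 to 71.2%) and 224 of 361 on the high side (62.0%, 56.9 to 66.9%), against 2668 of 3777 at 20% to 80% (70.6%, 69.2 to 72.1%) and 8998 of 13309 at 100% (67.6%, 66.8 to 68.4%). The interval of the low side overlapped both others. That of the high side lay below the interval at 20% to 80% and met that at 100% by its upper end. With 1 site per gene and class, the high side had 61.7% transitions (55.5 to 67.4%, 253 sites). At 20% to 80% it was 69.5% (66.4 to 72.4%, 908 sites), and these intervals overlapped. The intervals of these classes did not overlap at a coverage of 20 or more, with 60.6% (53.7 to 67.1%) against 70.2% (68.2 to 72.2%). Neither did they at 30 or more, with limits of 10% and 90% or 25% and 75%, or without sites that had another listed site within 10 bp. High-side sites with 1 reference read had 58.3% transitions (50.9 to 65.3%) and those with 2 or more had 65.6% (58.5 to 72.04%), an interval that also overlapped that at 20% to 80%. Low-side sites with 2 alternative reads had 69.6% (62.1 to 76.3%) and those with 3 or more had 62.9% (55.2 to 70.0%). Within each side these intervals overlapped.

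By type, changes of C to T or G to A were the most frequent on both sides, with 36.0% of the low side and 33.2% of the high side, against 38.1% at 20% to 80% and 33.9% at 100%. Changes of A to G or T to C followed, with 30.3% and 28.8% on the low and high side, against 32.6% and 33.7% at 20% to 80% and at 100%. Among transversions, changes between A and T were the most frequent in each class, with 10.1% on the low side (7.24 to 13.9%), 12.2% on the high side (9.21 to 15.97%), 9.29% at 20% to 80% and 9.08% at 100% (8.61 to 9.58%). Changes of C to A or G to T made up 9.70% of the high side (7.05 to 13.2%) and 6.70% of the sites at 20% to 80% (5.94 to 7.54%). For all 6 types, the intervals of the low side overlapped those of the other classes.

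**Figure D3:**
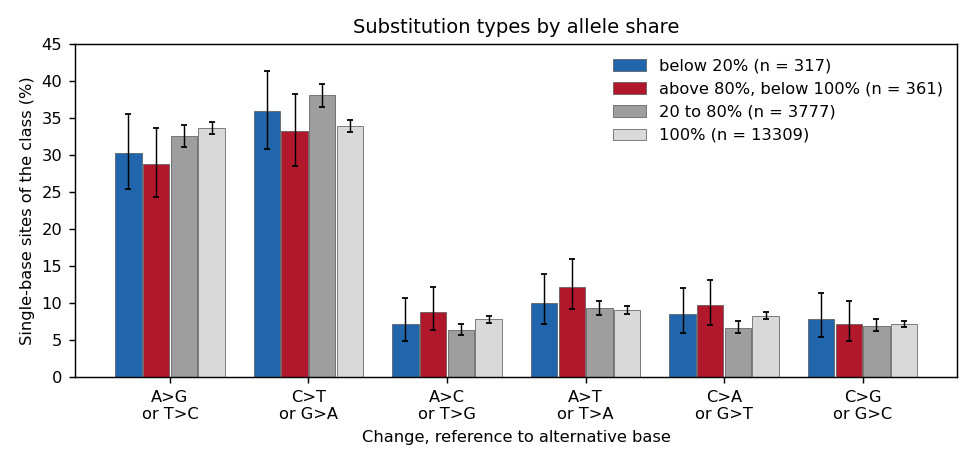
Percent of single-base sites (vertical axis) with each of 6 kinds of change from the reference to the alternative base (horizontal axis), complementary changes counted together; bars are the low side (n = 317), the high side (n = 361), sites at 20% to 80% (n = 3777) and sites at 100% (n = 13309), and black lines are 95% Wilson intervals. C-to-T or G-to-A changes led on the low side (36.0%) and the high side (33.2%), and the intervals of the skewed sides overlapped those of at least 1 other class for every kind of change.

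Low-side sites with 2 alternative reads were often the lone covered site of their gene. For each site, the nearest other covered site of the same gene was taken; neighbours were chosen on the same measure as the sites and can share reads with them, so the values are a description. Of the low-side sites with 2 alternative reads, 53 of 164 were the lone covered site of their gene (32.3%, 25.6 to 39.8%). Among sites of the same coverage, 11 to 22 reads, this held for 6.67% of the high side (3.76 to 11.5%), 4.54% of the sites at 20% to 80% (3.66 to 5.61%) and 6.58% of the sites at 100% (6.01 to 7.21%). Of the low-side sites with 3 or more alternative reads, 7.55% were the lone covered site of their gene (4.37 to 12.7%). At the same coverages, 16 to 98 reads, this held for 4.45% of the high side, 3.01% of the sites at 20% to 80% and 4.47% of the sites at 100%. Counting listed sites of any coverage, 23 of the 164 sites with 2 alternative reads were alone in their gene, and 6 of the 159 with 3 or more. Where there was a covered neighbour, it was a median of 149 bp away from low-side sites with 2 alternative reads, against 52 bp on the high side, 33 bp at 20% to 80% and 36 bp at 100% at the same coverages. For low-side sites with 3 or more alternative reads the median was 57 bp, against 45, 30 and 36 bp in those classes.

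The neighbour of a low-side site with 3 or more alternative reads was another low-side site in 30.2% of cases (23.6 to 37.7%) and a site at 20% to 80% in 41.5% (34.1 to 49.3%). With 2 alternative reads, it was a low-side site in 7.93% (4.69 to 13.1%) and a site at 100% in 34.8% (27.9 to 42.3%). Over all covered sites, the nearest site was a low-side site in 1.36% and a high-side site in 1.80%. When the neighbour was within 100 bp, its median share was 23.3% beside sites with 3 or more alternative reads and 76.9% beside those with 2, and the shares of site and neighbour differed by a median of 5.22 and 60.7 percentage points, in the same order. With 3 or more alternative reads, 105 of the 159 sites had a neighbour within 100 bp, 69 of them with a share within 10 percentage points. With 2, it was 44 of the 164 sites, 11 of them within 10 points. Where a neighbour was that near, shares were thus mostly similar beside the former sites and mostly not beside the latter. The groups differ in coverage, 16 to 98 and 11 to 22 reads, and these shares were not compared at equal coverage.

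High-side sites had neighbours of every class. Their nearest site was at 100% in 48.1% of cases (43.1 to 53.2%), at 20% to 80% in 23.2% (19.2 to 27.8%), on the high side in 20.5% (16.7 to 24.9%) and on the low side in 2.43% (1.28 to 4.56%). Over all covered sites, which are mostly sites at 100%, the nearest site was at 100% in 70.8% and at 20% to 80% in 20.4%. A neighbour at 100% was thus less frequent beside high-side sites than over all sites. It was more frequent there than beside sites at 20% to 80%, where it was found in 17.1% (15.9 to 18.3%). A high-side neighbour was more frequent beside high-side sites than over all sites (20.5% against 1.80%). With 1 reference read, the neighbour was at 100% in 63.9% of cases (56.6 to 70.5%) and at 20% to 80% in 12.2% (8.21 to 17.8%). With 2 or more reference reads, it was at 100% in 33.2% (26.9 to 40.1%) and at 20% to 80% in 33.7% (27.3 to 40.7%). For comparison, 74.03% of the sites at 20% to 80% had a neighbour of their own class, and 87.5% of the sites at 100% did. Within 100 bp, a high-side site and its neighbour differed by a median of 3.12 percentage points where there was 1 reference read and 10.9 where there were more. The split by reference reads itself sets the shares of the sites, so these differences are a description. Over all high-side sites, the median share was 94.3% with 1 reference read and 86.2% with more. The neighbours within 100 bp had median shares of 100% and 88.2%, in the same order.

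**Figure D4:**
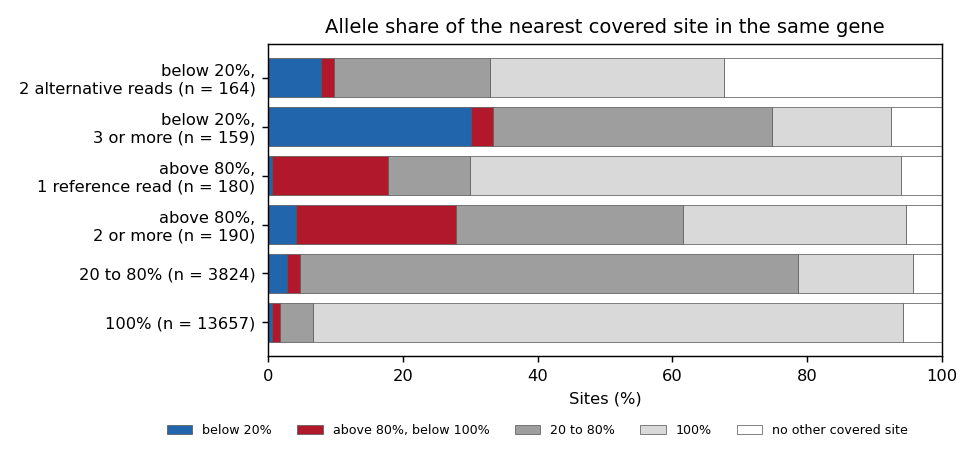
Percent of sites (horizontal axis) by the alternative share of the nearest covered site in the same gene (colours), for low-side sites with 2 and with 3 or more alternative reads, high-side sites with 1 and with 2 or more reference reads, sites at 20% to 80% and sites at 100% (rows, with their numbers). White marks sites with no other covered site in the gene, 32.3% of the low-side sites with 2 alternative reads and 7.55% of those with 3 or more.

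Low-side sites were also less crowded. Another listed site lay within 10 bp of 10.8% of the low-side sites (7.90 to 14.7%) and 20.5% of the high-side sites (16.7 to 24.9%), against 23.6% at 20% to 80% (22.3 to 25.0%) and 22.4% at 100% (21.7 to 23.1%). Among low-side sites with 2 alternative reads it was 4.27% (2.08 to 8.55%), and among those with 3 or more 17.6% (12.5 to 24.3%), an interval that overlapped the other classes. Closeness to the end of a gene did not set the classes apart: 21.7% of the low side, 22.7% of the high side, 19.04% of the sites at 20% to 80% and 20.7% of the sites at 100% were within 200 bp of a listed gene start or end, with the interval of each side overlapping the other classes.

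The 693 sites fell in 478 of the 3622 genes with covered sites, and 37 of the 478 held sites of both sides. Low-side sites were in 255 genes, 212 of them with 1 such site, 30 with 2 and 13 with 3 or more. High-side sites were in 260 genes, 196 with 1, 41 with 2 and 23 with 3 or more. Of the genes with low-side sites, 127 also had a covered site at 20% to 80%, 53 had sites at 100% but none at 20% to 80%, and 72 had low-side sites only. Of the genes with high-side sites, 126 also had a site at 20% to 80%, 103 had sites at 100% but none at 20% to 80%, and 28 had high-side sites only. Runs of low-side sites with no other covered site between them numbered 32 and held 71 sites, the longest being 3 sites. High-side runs numbered 43 and held 96 sites, the longest being 4. The sites were scattered over 96 scaffolds on the low side, with most on Bm_scaf5 (19 of 504 covered sites), and over 98 on the high side, with most on Bm_scaf1 (26 of 720).

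BGIBMGA013376 held the most low-side sites, 9 of its 53 covered sites, besides 3 on the high side, 32 at 20% to 80% and 9 at 100%. The gene is listed on Bm_scaf50 from 2755395 to 2774973, with no function given, and its covered sites formed 2 stretches more than 5 kb apart. In the stretch from 2771157 to 2774461, 7 of 20 sites were on the low side, 13 were at 20% to 80% and none was at 100%, with shares from 11.8% to 50%, a median of 22.2% and a median coverage of 51. The 7 low-side sites there had 9 of 65, 9 of 63, 8 of 51, 6 of 51, 8 of 52, 6 of 31 and 7 of 45 reads. In the stretch from 2758150 to 2761327, 33 sites had a median share of 68.8%, and low-side, high-side, intermediate and 100% sites (2, 3, 19 and 9) lay intermixed. Low-side sites thus occurred in both stretches, beside sites at 100% in this one only.

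BGIBMGA012465 (Bm_scaf56, 1387596 to 1391399, no function given) had 7 low-side sites among 28. They had 7 of 44, 7 of 40, 8 of 52, 4 of 27, 5 of 30, 9 of 46 and 4 of 28 reads, or 14.3% to 19.6%, and were spread from 1387932 to 1390576. Its 12 sites at 20% to 80% had a median share of 29.2%, and 9 sites were at 100%, so that sites with low shares and sites at 100% were listed in the same gene. In BGIBMGA005963 (Bm_scaf5, 6638125 to 6652877), 4 of 12 sites were on the low side, with 5 of 40, 7 of 48, 8 of 43 and 4 of 21 reads, and the other 8 were at 20% to 80%. In BGIBMGA004976 (Bm_scaf65, 858464 to 882528), 4 of 10 sites were on the low side, at 17.4% to 19.4%, 5 were at 20% to 80% and 1 was at 100%. BGIBMGA008168 (Bm_scaf52, 493381 to 496893) had 3 low-side sites, at 16.7% to 18.2%, and 1 high-side site at 93.8% among 34.

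Among the genes with the most high-side sites, BGIBMGA005013 (Bm_scaf32, 4127914 to 4131055) led with 9 of 31, beside 8 at 20% to 80% and 14 at 100%. Its high-side sites had 79 of 83, 12 of 14, 47 of 53, 59 of 71, 20 of 21, 10 of 11, 11 of 12, 26 of 31 and 57 of 60 reads, or 83.1% to 95.2%. The site with 26 of 31 reads is the deletion of 4 bases printed above. In BGIBMGA003185 (Bm_scaf13, 5215534 to 5229600), 5 high-side sites within 5219868 to 5221060 had 25 of 29, 45 of 51, 44 of 49, 38 of 44 and 75 of 85 reads, or 86.2% to 89.8%. Of the other sites in this gene, 27 were at 100%, 3 at 75% to 80% and 1 at 18.5%. The shares of the high-side sites spanned a narrower range in BGIBMGA003185 than in BGIBMGA005013, but the exact intervals overlapped within either gene, and both genes also held sites at 100%. The sites at 20% to 80% in BGIBMGA005013 had shares of 22.2% to 63.6%.

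In BGIBMGA012060 (Bm_scaf24, 1650326 to 1667011), 6 of 64 sites were on the high side, at 81.8% to 92.3%, 1 on the low side at 16.2%, 17 at 20% to 80% and 40 at 100%. BGIBMGA002404 (Bm_scaf14, 2729565 to 2766237) had 6 high-side sites, at 84.2% to 94.7%, among 57, and 1 low-side site with 7 of 41 reads (17.1%). BGIBMGA002035 (Bm_scaf23, 1606823 to 1626905) had 5 among 88, at 88.5% to 97.2%, with 69 sites at 100%. In BGIBMGA006730 (Bm_scaf10, 4016427 to 4017113), which held the longest run, all 4 covered sites were on the high side, with 91 of 96, 81 of 84, 85 of 90 and 48 of 50 reads, or 94.4% to 96.4%. No function is given for any of these genes in the sources used here.

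**Figure D5:**
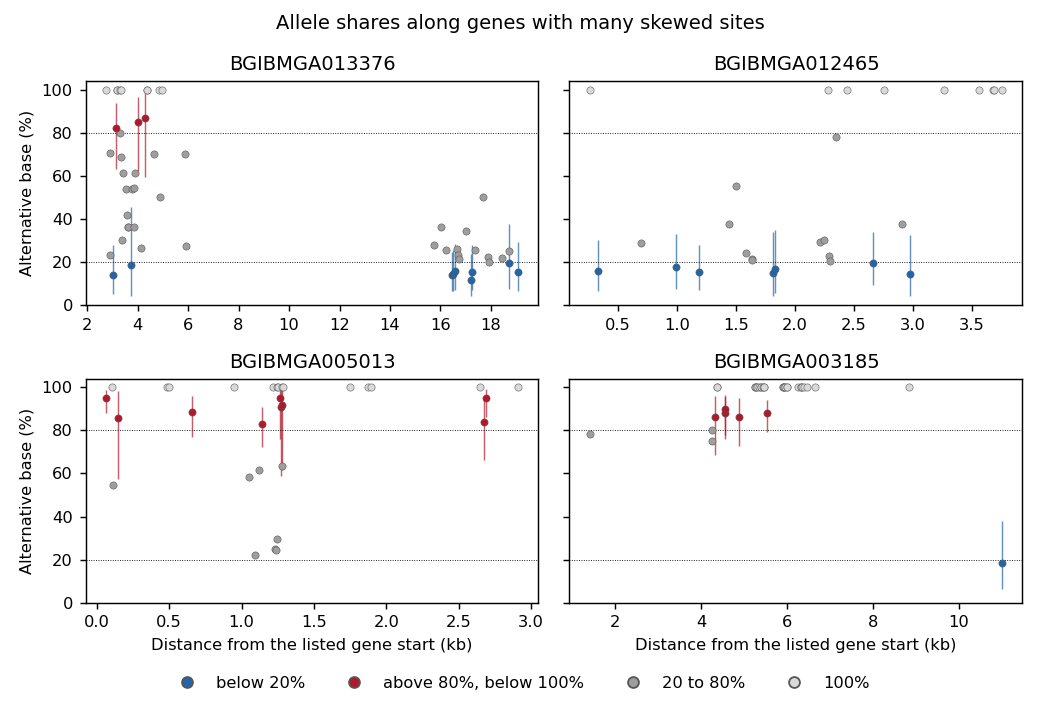
Percent of reads with the alternative base (vertical axis) against the distance from the listed gene start in kb (horizontal axis) for all covered sites of 4 genes; blue points are low-side sites, red points high-side sites, dark grey points sites at 20% to 80% and light grey points sites at 100%, vertical lines are exact 95% intervals of the skewed sites, and dotted lines mark 20% and 80%. The 7 low-side sites of BGIBMGA013376 at 16 kb or more lie among shares of up to 50%, and the 5 high-side sites of BGIBMGA003185 lie at 86.2% to 89.8%.

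Of 55 genes that the study singled out, for pigment, cuticle, chitin and nuclear receptors, for a strong change between the strains or as references, 26 had covered sites. Against 478 of all 3622 genes with covered sites, 3 of these 26 genes held skewed sites. No low-side site was among their 132 covered sites, which allows a share of up to 2.27% (3 counts of 132; the upper Wilson limit is 2.83%), and 7 were on the high side (5.30%, 2.59 to 10.5%), against 1.78% and 2.04% of all covered sites. The 7 sites came from 3 genes and are not independent. LCP-12 (BGIBMGA002548, Bm_scaf14, 5814710 to 5816026), a larval cuticle protein gene, had 3 high-side sites with 9 of 10, 15 of 17 and 23 of 25 reads (90%, 88.2% and 92.0%) and 2 sites at 100%. The chitinase gene BGIBMGA010240 (Bm_scaf15, 3001155 to 3015837), whose product degrades chitin, had 3 with 16 of 17, 13 of 14 and 11 of 13 reads (94.1%, 92.9% and 84.6%), beside a site at 68.2% and a site at 100%. In the mucin gene BGIBMGA013949 (Bm_scaf29, 272105 to 277655), 84 of 85 reads carried the alternative base at 1 site (98.8%) and the other 34 sites were at 100%. The 18 covered sites of the melanin genes were all at 100%. The genes for ommochromes, pigments that range from yellow and red to purple and black, had 19 covered sites. Of these, 10 were at 20% to 80% and 9 at 100%. The 9 sites of the nuclear receptor genes comprised 3 at 20% to 80% and 6 at 100%.

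Among 208 cuticle protein genes, which encode the structural proteins of the larval skin, 39 had covered sites. Of their 193 sites, 2 were on the low side (1.04%, 0.285 to 3.70%), 6 on the high side (3.11%, 1.43 to 6.62%), 68 at 20% to 80% and 117 at 100%. Both intervals hold the shares of all covered sites, 1.78% and 2.04%. The skewed sites were in 4 of the 39 genes, LCP-12 among them, against 478 of all 3622 genes with covered sites. BGIBMGA008255 (Bm_scaf94, 113316 to 114655) had a low-side site with 4 of 39 reads, the lowest single-base share in the list (10.3%, 2.87 to 24.2%), beside sites at 30.8% and 100%. BGIBMGA000388 (Bm_scaf18, 1404285 to 1419174), annotated as a structural constituent of cuticle, had 1 low-side site with 6 of 32 reads (18.8%) and 2 high-side sites with 17 of 21 and 39 of 45 reads (81.0% and 86.7%) among 32. BGIBMGA010500 (Bm_scaf6, 268812 to 278566) had 1 high-side site with 13 of 14 reads (92.9%), while 30 of its 34 sites were at 20% to 80%.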

How the data were processed

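Reads of the 2 epidermis libraries were aligned by the authors to the silkworm genome of SilkDB. Build, aligner, variant caller and filters are not given in the sources used here. The deposited coverage is a raw count of reads at a site, and the deposited share is the percent of that count with the alternative base. Reads with either base were computed from both, and came out whole to the 2 decimals listed at every site. Rows were merged when scaffold, position and both alleles were equal (47044 rows, 47001 sites), and 43 rows listed again under another gene were dropped. Shares over sites have 95% Wilson intervals and shares at a site exact Clopper-Pearson intervals. No test was made. Gene starts and ends are as deposited; none of the gene identifiers matched the RefSeq gene table. The members and gene lists were chosen with earlier results of these data known. The rule named the 5 genes with the most sites per side, the listed pathway genes with a site, and sites by coverage, by share and next to the limits. The last place or places on each side were ties, filled by the genes with more covered sites. BGIBMGA008168 (3 low-side of 34 covered sites) was thus named. Tied genes such as BGIBMGA010176 (3 of 27) and BGIBMGA002400 and BGIBMGA006827 (3 of 3 each) were not. On the high side, BGIBMGA002035 (5 of 88) and BGIBMGA003185 (5 of 36) were named, but not BGIBMGA002983 (5 of 12) or BGIBMGA003454 (5 of 15). The named genes thus need not be typical of the tied genes. BGIBMGA006730 as a gene, and the stretches of genes, were singled out after their values were seen. Scripts used Python 3.11.15, pandas 2.3.3 and scipy 1.17.1, and were tested on simulated data.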

Additional observations from a re-analysis of the deposited data

How the results depend on the processing

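Of 57 alternative values for 10 results, 36 lay inside the 95% interval of the reported value. This count does not measure robustness, since the outcome of some alternatives was fixed in advance. Changed limits leave the sites at 100% untouched (8998 transitions of 13309 each time). Leaving out the highest listed coverage kept 18173 of 18174 sites. The percent of sites on a side, by contrast, changes with its limits by definition. The low side was 1.52% of sites at a coverage of 20 or more, 1.59% at 30 or more, 0.011% with limits of 10% and 90%, 3.54% with 25% and 75%, and 2.04% without crowded sites. The high side was 2.39% at a coverage of 30 or more, 1.07% with 10% and 90%, and 2.82% with 25% and 75%. Transitions on the low side were 60.2% at a coverage of 30 or more; at 100% they were 68.6% at 20 or more, 68.9% at 30 or more and 66.4% with 1 site per gene. With limits of 10% and 90% the low side held no single-base site, so that transitions could not be given, and 100% of its 2 sites were indels. A low-side site had a low-side neighbour in 31.5% of cases within 100 bp and at a coverage of 20 or more, 0% with 10% and 90%, and 35.8% with 25% and 75%. A high-side site had a high-side neighbour in 26.0% within 100 bp and 13.3% with 10% and 90%. Leaving out sites with 2 alternative reads or 1 reference read, chosen after seeing the data, gave 28.9% for low-side neighbours and 0% indels on the low side (0 of 159). The causes of these shifts were not tested beyond the changed limits themselves. No paired analysis was possible because the values carry no column per library; for the same reason no library could be left out. No share under 10% was listed at a coverage of 50 or more, and whether rarer bases were left out of the list was not tested. The precision of most single shares was limited by coverage.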
